A study of Mus musculus with 9 samples.

Results

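Partial withdrawal of MYC was examined in T-ALL, a line of mouse T cell acute lymphoblastic leukaemia, by setting the 3 libraries labelled MYC on against the 3 labelled MYC intermediate, which are 6 of the 9 libraries of the series. The line came from tumours of FVB/N mice carrying EμSRα-tTA and tet-O-MYC, so that a tetracycline transactivator expressed from a lymphoid enhancer and promoter drives a human MYC transgene (hMYC). MYC on cells received the mock treatment with no doxycycline, MYC intermediate cells received doxycycline at 20 pg/mL, and both were collected at 48 hours. The remaining 3 libraries, MYC off, received 500 pg/mL for the same time; they entered the statistical fit and are used below to place the first step beside the second. The members of the comparison were all genes counted in these libraries. The dose of doxycycline and the level of the transgene changed together between the groups, and their effects cannot be told apart.

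MYC is a transcription factor that pairs with MAX and binds E-box sequences at promoters, where it is best known for raising ribosome production, translation, nucleotide synthesis and other parts of cell growth. In tet-off models doxycycline blocks the transactivator and lowers the transgene, and tumours driven by MYC often depend on its continued expression. In developing thymocytes, MYC rises with pre-T cell receptor and Notch signals and is lowered as the cells mature.

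The 6 libraries held between 18705516 and 32222479 gene counts. The MYC on libraries (18705516 to 29349725) were on average the shallower ones, and the correlation of log2 CPM (counts of a gene scaled to a common library total) was 0.989 to 0.996 between libraries of the same group and 0.958 to 0.963 between groups. T cell defining genes (Cd3d, Cd3e, Cd3g, Cd247, Lck, Thy1, Trac, Trbc1 and Trbc2) all passed the filter on low counts. Of marker genes of other cell types, 1 of 9 for B cells, 4 of 13 for myeloid cells, 1 of 7 for NK cells, 1 of 12 for erythroid cells and platelets, and 2 of 13 for stroma and endothelium passed it. Ms4a1, Lyz2, Ncr1 and Col3a1 had 0 counts in the 6 libraries. In bulk RNA, fewer cells of a type and less RNA per cell cannot be told apart.

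The transgene was checked first. The hMYC level was 1340, 1190 and 1250 CPM in the MYC on libraries and 428, 414 and 383 CPM in the MYC intermediate libraries, so that 32.4% of the MYC on level was left. The log2 fold change of MYC on over MYC intermediate was 1.61 ± 0.071 (SE; adjusted p = 2.79e-10, edgeR quasi-likelihood test, Benjamini-Hochberg over all genes tested), and the 2 groups did not overlap. An exact two-sided permutation test over the 3 against 3 libraries gave p = 0.1, the smallest this design can give. In MYC off, 3.79 CPM of hMYC remained. The mouse Myc gene had 0 counts in each of the 6 libraries, out of 156327656 in all, where a count of 0 allows up to 0.0192 CPM. Intervals and limits of this kind cover counting error only. Whether reads of mouse Myc were assigned to hMYC or lost in alignment was not tested.

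**Figure D1:**
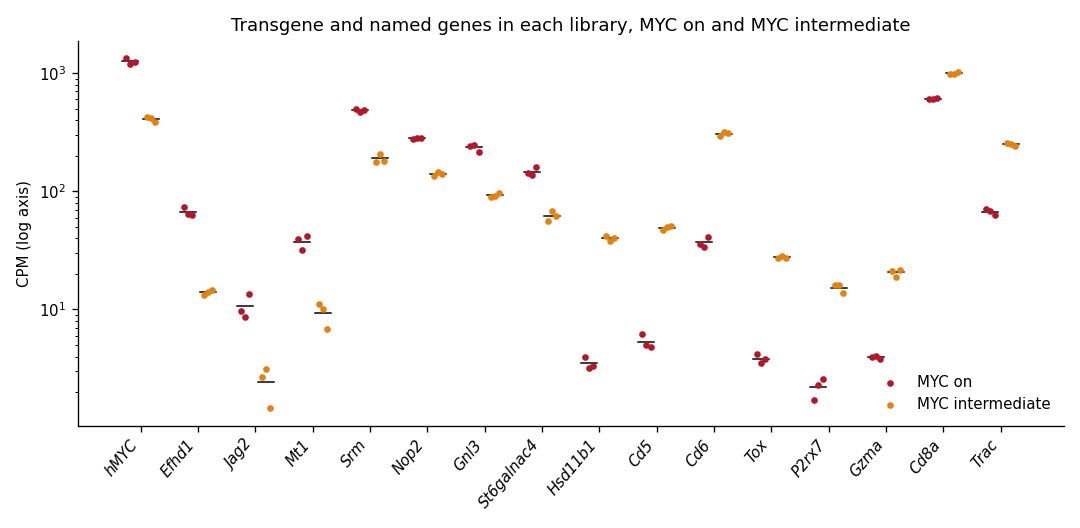
Level of the hMYC transgene and of 15 mouse genes in each library, as CPM on a log axis, with MYC on in red and MYC intermediate in orange; each point is a library and each line the mean of 3. hMYC fell from a mean of 1260 to 408 CPM, the 7 genes from Efhd1 to St6galnac4 were lower in MYC intermediate, and the 8 from Hsd11b1 to Trac were higher, with no overlap between the groups. For genes named for the largest falls and rises, this was a condition of the choice.

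Of 14098 genes tested, 4884 (34.6%) were called at an adjusted p under 0.01. Of these, 2424 (17.2% of genes tested) were higher in MYC on, that is, they fell on partial loss of MYC, and 2460 (17.4%) were lower in MYC on, that is, they rose. Most of these changes were small: the median absolute log2 fold change of the called genes was 0.549, and 2656 of them (54.4%) changed by less than 1.5-fold. More than 2-fold falls numbered 427 (3.03% of genes tested) and rises 476 (3.38%), and beyond 4-fold there were 33 falls and 115 rises. The median over all tested genes was -0.008 on the log2 scale, a value that the scaling itself keeps near 0. In 7543 genes (53.5%) the 3 libraries of one group all lay on one side of the other group's. Protein coding genes were called in 39.2%, long noncoding genes in 21.5% and pseudogenes in 11.4%; 86 pseudogenes fell and 29 rose. The hMYC fall was exceeded by 93 other called genes, of which 23 reached 10 CPM in one of the groups.

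**Figure D2:**
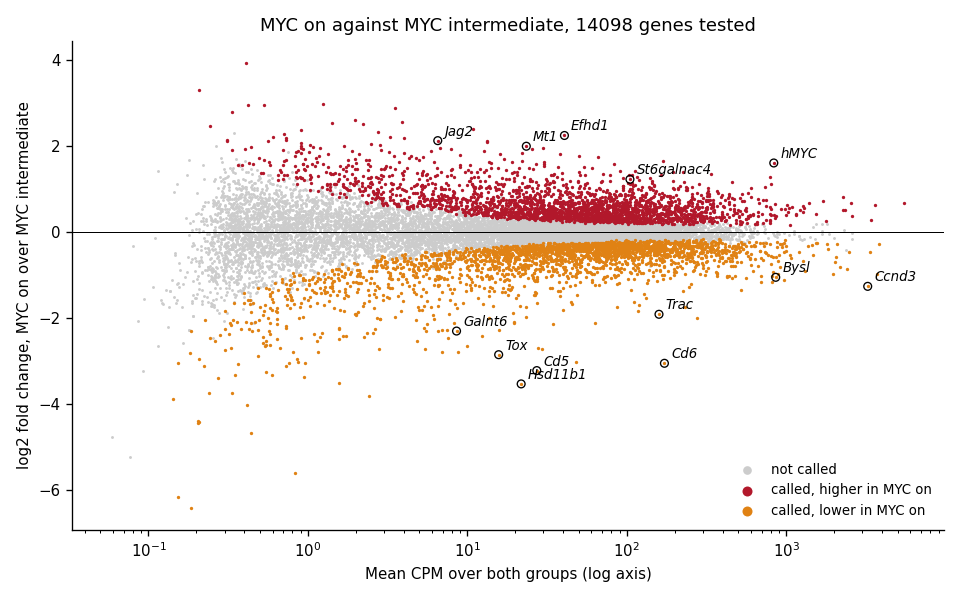
Each point is one of the 14098 genes tested, placed by its mean CPM over both groups (log axis) and by the log2 fold change of MYC on over MYC intermediate; red points were called higher in MYC on, orange points lower, and grey points were not called. Ringed genes are named in the text, and Hsd11b1 at -3.53, Cd5 at -3.22 and Cd6 at -3.05 lie farther from 0 than hMYC at 1.61.

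The genes with the largest falls were a mixed group. Efhd1 (ENSMUSG00000026255), which encodes a mitochondrial calcium-binding protein, was at 74.3, 64.1 and 63.1 CPM in MYC on and at 13.3, 14.2 and 14.6 CPM in MYC intermediate (log2 fold change 2.25 ± 0.087, adjusted p = 9.6e-11). Its antisense partner Efhd1os fell as well (2.39 ± 0.16), but the exons of both overlap and the kit does not mark strand, so reads from the pair cannot be told apart. Jag2, a ligand of Notch receptors, went from 9.64, 8.71 and 13.5 CPM to 2.7, 3.11 and 1.46 CPM (2.13 ± 0.27, adjusted p = 1.28e-05). Between MYC intermediate and MYC off, Jag2 differed by -0.33 ± 0.29 (adjusted p = 0.41). Mt1, a metallothionein that binds zinc and copper, fell from 39.1, 31.6 and 41.8 CPM to 11.1, 10.1 and 6.83 CPM (2.00 ± 0.18, adjusted p = 2.68e-07). A lack of overlap between the 2 groups was a condition for naming these genes. The other genes of this set were Nptx1, Meikin, Ccdc116, Sh3bgrl2, Fam185a, Lingo3, Spire1, Nefh, Txnrd3, Cnnm3 and Sowahc, with log2 fold changes from 2.13 (Nptx1, a neuronal pentraxin) to 1.74 (Sowahc). Nefh, a neurofilament subunit, fell by a log2 fold change of 1.83 ± 0.13, from a mean of 59.4 to 16.6 CPM, and was at 2.14 CPM in MYC off. Most reads near Ccdc116 fall on Ydjc, whose exons overlap it on the other strand, so its fold change is uncertain.

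The largest rises were larger than the largest falls. Of the 15 genes named for their rise, 6 (Cd5, Cd6, Tespa1, Tox, Gzma and Cd2) are on the T cell lists described below, and the others are not. Hsd11b1, which regenerates active glucocorticoid from its inert form, was at 3.98, 3.21 and 3.31 CPM in MYC on and at 41.6, 38.2 and 40.0 CPM in MYC intermediate (log2 fold change -3.53 ± 0.11, adjusted p = 5.55e-12). Cd5, a surface inhibitor of T cell receptor signalling, rose from 6.2, 5.03 and 4.8 CPM to 47.0, 49.7 and 50.7 CPM (-3.22 ± 0.094, adjusted p = 5.04e-12). Cd6, its related neighbour on the chromosome, rose from 36.1, 33.7 and 41.3 CPM to 293, 315 and 312 CPM (-3.05 ± 0.08). Relative to MYC on, the level in MYC intermediate was 1142% for Hsd11b1, 919% for Cd5 and 828% for Cd6. Tespa1, needed for T cell receptor signalling in the thymus, rose from 10.4, 10.0 and 11.2 CPM to 78.7, 91.2 and 87.1 CPM (-3.03 ± 0.078). Tox, a nuclear factor of thymocyte selection, rose from 4.23, 3.53 and 3.78 CPM to 27.1, 28.2 and 27.3 CPM (-2.85 ± 0.095). In these 5 genes the lowest MYC intermediate library lay above the highest MYC on library, which the naming rule required. The same set held the ATP-gated channel P2rx7 (-2.78 ± 0.14), the ERK-responsive transcription factor Etv5 (-2.70 ± 0.1), the granule protease Gzma (-2.41 ± 0.12), the adhesion receptor Cd2 (-2.29 ± 0.14) and Nlrc3 (-2.28 ± 0.17). Pglyrp2, Tmem151b, Myo1f, Rab37 and Galnt6 completed it, with log2 fold changes between -2.79 and -2.30.

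Promoter sequences were examined for the E-box CACGTG, which reads the same on both strands, in the RefSeq windows of 250 bases before to 50 after each start (build GRCm38.p6). The motif was in 7.15% of all 32851 windows and in 11.8% of the 9387 windows that matched a tested gene. Among genes called higher in MYC on, 314 of 1805 windows (17.4%) held it. Among genes called lower in MYC on the share was 163 of 1791 (9.10%), and among those not called 635 of 5791 (11%). For called genes past 2-fold it was 42 of 281 (14.9%) among those higher in MYC on and 24 of 298 (8.05%) among those lower. Of the nucleolar genes of ribosome assembly described below, 23 of 107 windows (21.5%) held it, and of the cytosolic ribosomal protein genes 9.52%. A match describes these letters in this window only. The windows of Efhd1, Jag2, Mt1, Hsd11b1, Cd5, Pglyrp2 and St6galnac4 held no CACGTG. A window without it does not show that MYC is not bound there. For St6galnac4 the authors reported preferential MYC binding at the promoter, from another dataset. To show both kinds, the windows of 3 nucleolar genes that held the motif and fell the furthest among such genes, chosen after their values were seen, are printed with that of Cd5 and of the sialyltransferase gene St6galnac4; capitals mark CACGTG. They are Mybbp1a (chr11:72441077-72441376, plus strand), Nop2 (chr6:125131633-125131932, plus strand), Utp4 (chr8:106893390-106893689, plus strand), St6galnac4 (chr2:32586828-32587127, plus strand) and Cd5 (chr19:10738925-10739224, minus strand).
Mybbp1a: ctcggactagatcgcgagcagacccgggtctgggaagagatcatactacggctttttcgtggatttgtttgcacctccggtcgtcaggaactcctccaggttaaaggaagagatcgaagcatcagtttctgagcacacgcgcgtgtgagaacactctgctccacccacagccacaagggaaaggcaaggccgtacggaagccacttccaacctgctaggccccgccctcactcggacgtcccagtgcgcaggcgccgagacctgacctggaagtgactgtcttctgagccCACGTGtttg
Nop2: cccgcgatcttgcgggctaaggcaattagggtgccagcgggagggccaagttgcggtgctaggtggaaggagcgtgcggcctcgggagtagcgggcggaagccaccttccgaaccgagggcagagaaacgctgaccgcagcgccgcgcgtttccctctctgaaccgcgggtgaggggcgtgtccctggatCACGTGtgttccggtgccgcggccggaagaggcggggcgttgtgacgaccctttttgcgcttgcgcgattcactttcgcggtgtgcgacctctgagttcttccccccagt
Utp4: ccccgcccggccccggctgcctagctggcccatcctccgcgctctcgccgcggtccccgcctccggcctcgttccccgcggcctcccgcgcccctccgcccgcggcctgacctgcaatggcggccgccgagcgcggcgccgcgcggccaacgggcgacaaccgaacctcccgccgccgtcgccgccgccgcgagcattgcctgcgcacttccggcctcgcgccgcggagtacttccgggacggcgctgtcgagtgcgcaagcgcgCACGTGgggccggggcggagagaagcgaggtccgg
St6galnac4: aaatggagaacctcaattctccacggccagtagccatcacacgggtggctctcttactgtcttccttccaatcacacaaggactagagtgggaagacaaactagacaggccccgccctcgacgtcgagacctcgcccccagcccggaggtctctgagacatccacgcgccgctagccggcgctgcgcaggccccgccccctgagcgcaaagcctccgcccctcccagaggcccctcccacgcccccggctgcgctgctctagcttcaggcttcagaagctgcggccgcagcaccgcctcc
Cd5: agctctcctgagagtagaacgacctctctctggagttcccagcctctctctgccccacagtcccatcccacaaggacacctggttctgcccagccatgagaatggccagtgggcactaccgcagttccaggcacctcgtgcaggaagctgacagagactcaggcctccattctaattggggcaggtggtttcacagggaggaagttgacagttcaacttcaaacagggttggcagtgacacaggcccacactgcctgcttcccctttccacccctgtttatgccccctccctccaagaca
The motif began 40 bases after the start in Mybbp1a, 15 bases after it in Utp4, and at position -60 in Nop2. Mybbp1a, which encodes a nucleolar MYB-binding protein, was at 616, 632 and 662 CPM in MYC on and at 264, 297 and 283 CPM in MYC intermediate (1.17 ± 0.062). Nop2, an rRNA methyltransferase gene, fell from a mean of 280 to 139 CPM (1.00 ± 0.053), and Utp4, of the small subunit processome, from 310 to 157 CPM (0.97 ± 0.062).

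Genes that build ribosomes fell together. Of 130 nucleolar ribosome assembly genes tested, 107 fell, 1 rose and 22 were not called, with a median log2 fold change of 0.62. Gnl3 (nucleostemin) was at 243, 248 and 215 CPM in MYC on and at 89.0, 92.0 and 97.3 CPM in MYC intermediate (1.33 ± 0.065, adjusted p = 7.05e-10). Rrp1b fell by 1.32 ± 0.065 and Ppan by 1.26 ± 0.083 on the log2 scale. Gnl3 shares exon sequence with Pbrm1 on the opposite strand, which took 309.4% of its counts. All 131 genes of the list, tested or not, took 2.65%, 2.65% and 2.51% of all counts in MYC on and 1.63%, 1.67% and 1.72% in MYC intermediate (exact two-sided permutation p = 0.1, the smallest possible). The exception was Bysl, whose product is needed for the small subunit: it rose from 536, 568 and 581 CPM to 1108, 1116 and 1237 CPM (-1.05 ± 0.056, adjusted p = 1.81e-09). Bysl overlaps exons of Ccnd3 on the other strand, and Ccnd3 held 380.6% of the counts of Bysl and rose too (-1.26 ± 0.06). How far reads of Ccnd3 entered the Bysl count was not tested.

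Cytosolic ribosomal protein genes fell in 62 of 84 tested members, with 0 rises and a median of 0.59. Rps4x was at 285, 256 and 253 CPM in MYC on and at 147, 144 and 139 CPM in MYC intermediate (0.87 ± 0.071, adjusted p = 1.02e-07). Rpl12 fell by 1.01 ± 0.12 and Rps2 by 0.89 ± 0.11. Ribosomal protein genes have many pseudogenes with near-identical sequence, and the counts of single members are uncertain for that reason. Their share of counts was 1.36%, 1.28% and 1.33% in MYC on against 0.963%, 0.874% and 0.746% in MYC intermediate, where the 3 libraries spread widely. The median was 0.72 without MYC intermediate replicate 1 and 0.46 without MYC intermediate replicate 3. RNA polymerase I and III genes fell in 19 of 35 members and rose in 2 (Gtf3c5 and Gtf3c6). Polr1b, the second largest subunit of RNA polymerase I, fell from 194, 196 and 203 CPM to 79.9, 84.8 and 79.5 CPM (1.27 ± 0.062).

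Translation genes followed the same direction. Among 40 aminoacyl-tRNA synthetase genes 28 fell and 1 rose, with a median of 0.42, and Iars, which charges the isoleucine tRNA, fell from 310, 322 and 327 CPM to 153, 156 and 152 CPM (1.05 ± 0.049, adjusted p = 5.53e-10). Among 51 translation factor genes 37 fell and 1 rose. The initiation factor gene Eif1a fell by 1.14 ± 0.078 and the elongation factor gene Eef1g by 1.03 ± 0.061. Noncoding host genes of small nucleolar RNAs, which are processed from their introns, and other growth-related noncoding genes fell in 11 of 17 members with 0 rises and a median of 1.00. Gas5 was at 128, 149 and 121 CPM in MYC on and at 56.5, 46.2 and 44.0 CPM in MYC intermediate (1.42 ± 0.097). Pvt1, the long noncoding neighbour of Myc, fell from 7.13, 7.97 and 7.60 CPM to 2.05, 1.81 and 3.10 CPM (1.69 ± 0.23). Nuclear transport and pore genes fell in 27 of 57 members and rose in 3.

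Splicing factor genes did not share this pattern. Of 83 tested, 7 fell and 8 rose (18.1% called, against 34.6% of all genes), and the median was 0.01. The proteasome genes were called in 27.1%, with 8 falls and 5 rises. The largest rise there was Psmb9, an immunoproteasome subunit, at -0.57 ± 0.067, while Psmd7 of the regulatory particle fell by 0.57 ± 0.062. Exons of Psmb9 and Tap1 overlap on opposite strands.

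**Figure D3:**
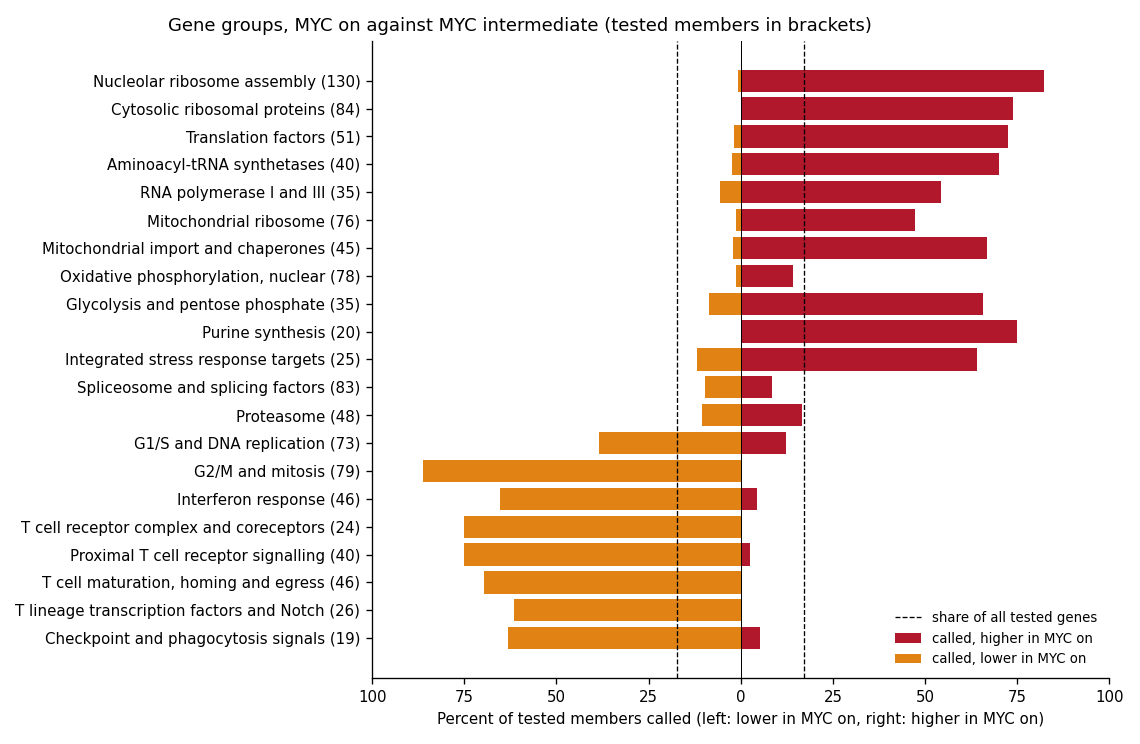
Bars give the percent of tested members of each gene group that were called, to the right those higher in MYC on and to the left those lower in MYC on; tested members stand in brackets, and the dashed lines mark 17.2% and 17.4%, the shares among all tested genes. Ribosome, translation and glycolysis groups extend to the right, T cell, interferon and mitosis groups to the left, and oxidative phosphorylation and splicing genes stay inside or near the lines.

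Metabolic genes fell in most groups. Over all tested genes, 17.2% fell and 17.4% rose. In glycolysis and the pentose phosphate pathway 23 of 35 members fell and 3 rose (Ldhb, Hk1 and Taldo1), with a median of 0.48. Ldha, which reduces pyruvate to lactate, was at 6575, 6494 and 7321 CPM in MYC on and at 4106, 4300 and 4104 CPM in MYC intermediate (0.69 ± 0.077, adjusted p = 2.82e-06). Aldoa fell by 0.73 ± 0.087 and Hk2, the inducible hexokinase, by 0.74 ± 0.14. For Aldoa, MYC intermediate and MYC off differed by only 0.10 on the log2 scale, and the median of the group was 0.14 for that second step. Ldha fell by 0.51 ± 0.077 in it. In the edgeR contrast of both steps described below, 1 of 35 members was called, and Aldoa was not (adjusted p = 0.026). The glycolytic genes took 2.81%, 2.69% and 2.96% of counts in MYC on and 1.93%, 2.03% and 1.94% in MYC intermediate.

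Purine synthesis genes fell in 15 of 20 members with 0 rises, and Gart, a trifunctional enzyme of the pathway, went from 692, 676 and 662 CPM to 395, 403 and 420 CPM (0.73 ± 0.052). Pyrimidine genes were split, with 6 falls and 7 rises among 21. Dctd, the dCMP deaminase gene, fell by 1.63 ± 0.1 and Cad, which starts pyrimidine synthesis, by 0.95 ± 0.12. Rrm2, the ribonucleotide reductase subunit that peaks in S phase, rose from 1393, 1393 and 1238 CPM to 2552, 2463 and 2803 CPM (-0.97 ± 0.063). In serine and folate one-carbon metabolism 15 of 22 fell and 1 rose. Shmt2, the mitochondrial serine hydroxymethyltransferase, fell from 827, 777 and 826 CPM to 365, 407 and 411 CPM (1.03 ± 0.057), and the folate carrier Slc19a1 fell by 1.19 ± 0.066.

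The polyamine gene Srm, which makes spermidine, was at 498, 471 and 491 CPM in MYC on and at 179, 208 and 182 CPM in MYC intermediate (1.35 ± 0.065, adjusted p = 6.2e-10). Odc1, the first enzyme of the pathway, fell by 0.92 ± 0.064, and 10 of 19 polyamine genes fell against 1 that rose. Amino acid uptake and catabolism genes fell in 21 of 31 and rose in 3. Bcat1, which transaminates branched-chain amino acids, fell from 171, 160 and 160 CPM to 55.7, 63.8 and 62.6 CPM (1.42 ± 0.069). Targets of the integrated stress response, a programme led by ATF4, fell in 16 of 25 and rose in 3. Asns (asparagine synthetase) fell by 1.09 ± 0.068 and Pycr1 (proline synthesis) by 1.46 ± 0.092, whereas the cystine carrier gene Slc7a11 rose (-0.96 on the log2 scale, from 33.1 to 63.7 CPM). Cholesterol and fatty acid synthesis genes fell in 21 of 38 and rose in 2, with Lss (lanosterol synthase) at 1.11 ± 0.058.

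In the mitochondrion, import and chaperone genes fell in 30 of 45 members. Hspd1, the matrix chaperonin, went from 1191, 1178 and 978 CPM to 487, 435 and 446 CPM (1.28 ± 0.081), and C1qbp fell by 1.17 ± 0.065. Mitochondrial ribosome genes fell in 36 of 76 and rose in 1, with a median of 0.26. The nuclear genes of oxidative phosphorylation were called in 15.4% of 78 members, below the 34.6% of all genes, with 11 falls, 1 rise and a median of 0.08. That median was -0.04 without MYC intermediate replicate 3 and 0.20 without MYC intermediate replicate 1. Atp5b fell from 2950, 2869 and 2916 CPM to 2183, 2233 and 2310 CPM (0.37 ± 0.053). Atp5h rose (-0.56 ± 0.11), with the MYC intermediate libraries spread over 392, 336 and 271 CPM. Among 7 tested transcripts of the mitochondrial genome only mt-Co1 was called (-0.28 ± 0.064, adjusted p = 0.00189), and that call was lost without MYC on replicate 1 (-0.25).

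Genes of T cell identity and signalling rose. In the T cell receptor complex and coreceptors 18 of 24 members rose and 0 fell, with a median of -0.81. Trac, the constant region of the receptor alpha chain, was at 70.4, 68.0 and 62.9 CPM in MYC on and at 258, 252 and 243 CPM in MYC intermediate (-1.91 ± 0.067, adjusted p = 3.1e-11). Trbc2, a constant region of the beta chain, rose from 2571, 2365 and 2571 CPM to 5591, 4941 and 4102 CPM (-0.97 ± 0.099). The coreceptor genes changed less, Cd4 by -0.66 (688 to 1080 CPM), Cd8a by -0.73 (607 to 1000.0 CPM) and Cd8b1 by -0.54, and the CD3 chains Cd3d, Cd3e and Cd3g by -0.38, -0.41 and -0.36. Cd44 was not called (-0.02). The group took 0.675%, 0.650% and 0.676% of counts in MYC on and 1.27%, 1.19% and 1.09% in MYC intermediate.

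Proximal T cell receptor signalling genes rose in 30 of 40 members and 1, Ubash3a, fell. Lck, the kinase that phosphorylates the receptor, went from 1609, 1537 and 1621 CPM to 2552, 2844 and 2898 CPM (-0.81 ± 0.058). The log2 fold change was -1.73 ± 0.068 for Sit1, a transmembrane adaptor that limits signalling, -1.62 ± 0.07 for Txk, a TEC family kinase, and -1.34 ± 0.069 for Dgka, which removes diacylglycerol. T cell maturation, homing and egress genes rose in 32 of 46 with 0 falls and a median of -0.91. Itgal, the alpha chain of LFA-1, rose from 49.9, 49.7 and 54.9 CPM to 174, 184 and 194 CPM (-1.84 ± 0.065). Ccr7, which guides thymocytes to the medulla and T cells to lymph nodes, rose from 2.21, 2.51 and 2.59 CPM to 7.91, 10.6 and 11.1 CPM (-2.01 ± 0.15).

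Transcription factors of the T lineage rose in 16 of 26 members, with 0 falls. Gata3 was at 97.9, 95.5 and 101 CPM in MYC on and at 226, 211 and 201 CPM in MYC intermediate (-1.13 ± 0.06, adjusted p = 1.58e-09). Ets2 changed by -0.97 ± 0.052 and Bcl11b, which commits cells to the T lineage, by -0.91 ± 0.072. Tcf7 rose less (-0.27, 3450 to 4141 CPM), and Myb (-0.18), Ikzf3 (-0.05) and Tcf12 (0.06) were not called. Notch1 was not called (-0.36), and the Notch targets Hes1 and Dtx1 had 0 counts in the 6 libraries.

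Interferon response genes rose in 30 of 46 members and fell in 2, with a median of -0.55. Ifngr1, a chain of the interferon gamma receptor, rose from 107, 109 and 107 CPM to 359, 344 and 360 CPM (-1.73 ± 0.052, adjusted p = 5.55e-12). Zbp1, a sensor of Z-form nucleic acids, rose from 7.82, 7.38 and 7.02 CPM to 30.1, 33.6 and 31.5 CPM (-2.11 ± 0.084), and Tmem173 (STING) by -1.38 ± 0.083. MHC class I and peptide loading genes rose in 11 of 25 and fell in 1 (48% called beside 34.6% of all genes). Tapbp changed by -0.93 ± 0.062 and the class I gene H2-Q1 by -0.69 ± 0.053. Class I genes are near-identical in part, so counts of single members are uncertain. Checkpoint and phagocytosis signals rose in 12 of 19, and Ctla4 fell. Cd47, which signals against phagocytosis, went from 55.8, 57.0 and 52.5 CPM to 138, 114 and 123 CPM (-1.19 ± 0.076, adjusted p = 1e-08). Cd200 changed by -1.22 ± 0.069, Cd96 by -1.65 ± 0.091 and Lgals9 by -1.17 ± 0.063. Cd274, which encodes PD-L1, was not called (-0.28, 9.5 against 11.5 CPM).

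Markers of other cell types moved in both directions. Ighm, a B cell marker, fell (0.97 ± 0.082), while the myeloid integrin Itgam (-1.77 ± 0.13), the NK and T cell gene Prf1 (-2.31 ± 0.17) and the endothelial gene Pecam1 (-0.95 ± 0.059) rose. The summed B cell markers were between 0.00773% and 0.00947% of counts in MYC on and between 0.00407% and 0.00451% in MYC intermediate. Myeloid markers were between 0.0027% and 0.00315%, then 0.00331% and 0.00364%, and stromal and endothelial ones between 0.00895% and 0.00944%, then 0.0158% and 0.0178%. NK cell markers took at most 0.000225% and 0.000999%. The sums for B cells, for NK cells and for stroma and endothelium came mostly from a single gene each, so they repeat its change. These genes were Ighm (mean 85.0, then 43.1 CPM), Prf1 (1.86, then 9.13 CPM) and Pecam1 (83.8, then 160 CPM). Erythroid and platelet markers ranged over 0.000296% to 0.000399% and 0.00032% to 0.000378%. The part of other cells in the changes above was not tested.

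Genes of mitosis rose with little spread in size. Of 79 tested G2/M genes 68 (86.1%) rose and 0 fell, with a median of -0.42 and no member past 2-fold. Ccnb2 was at 292, 276 and 260 CPM in MYC on and at 456, 450 and 515 CPM in MYC intermediate (-0.79 ± 0.064, adjusted p = 1.02e-07). Foxm1, a transcription factor of this phase, changed by -0.70 ± 0.059 and Spc25, of the kinetochore, by -0.73 ± 0.098, while Ccnb1 was not called (-0.05). The group took 1.81%, 1.83% and 1.77% of counts in MYC on and 2.36%, 2.38% and 2.45% in MYC intermediate.

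Genes of G1/S and DNA replication were mixed, with 28 rises and 9 falls among 73 (50.7% called beside 34.6% of all genes). Pcna rose (-0.44, 373 to 502 CPM), and of the replicative helicase genes Mcm4 (-0.22), Mcm5 (-0.24) and Mcm7 (-0.19) rose slightly, while Mcm2, Mcm3 and Mcm6 were not called. The transcription factor genes E2f2 (-1.03 ± 0.052) and E2f8 (-1.0 ± 0.051) rose, and E2f1 was not called (-0.09). Ccnd3, the D-type cyclin of thymocytes, went from 1897, 1848 and 2011 CPM to 4539, 4706 and 4428 CPM (-1.26 ± 0.06). Its partner kinase gene Cdk6 fell from 69.4, 75.9 and 72.0 CPM to 37.9, 37.4 and 29.9 CPM (1.03 ± 0.091), and Ccnd2, added after its values were seen, fell from 4.62 to 0.918 CPM (2.33 ± 0.27). Among CDK inhibitor and quiescence genes 14 of 26 rose and 2 fell (Gas5, given above, and Sesn1 at 0.30). Cdkn2d (p19) rose from 72.3, 67.2 and 70.4 CPM to 182, 197 and 181 CPM (-1.43 ± 0.059) and Cdkn2c (p18) from 83.9, 85.9 and 78.8 CPM to 185, 186 and 187 CPM (-1.18 ± 0.052). Cdkn1b was not called (-0.31), and Trp53 was not called (0.16). Among apoptosis regulators 14 of 30 rose and 2 fell (53.3% called beside 34.6% of all genes). The death receptor gene Fas changed by -1.06 ± 0.076 and its inhibitor Cflar by -1.24 ± 0.063, whereas Bax (0.64) and Bid (0.44) fell.

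Of 25 tested genes of the MYC network, hMYC included, 10 fell and 6 rose (64% called beside 34.6% of all genes), with a median of 0.15. Max was not called (0.28, 66.8 against 54.6 CPM). Of its other partners, Mxd3 (-0.70) and Mxd1 (-0.40) rose, Mxi1 (0.36) and Mxd4 (0.32) fell, and Mnt was not called (0.03). The MYC coactivators Kat2a (1.00 ± 0.064) and Ruvbl2 (0.73 ± 0.069) fell, while Trrap rose (-0.39).

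Glycosylation genes were taken as a set of 250, of which 180 passed the filter. Of these 48 fell, 32 rose and 100 were not called, and the median was 0.08. The called share was 44.4%, beside 34.6% of all genes and 39.2% of protein coding genes. Past an absolute log2 fold change of 1.5, which 2.38% of all genes tested passed, there were 3: Podxl and Mgat4b fell and Galnt6 rose. Podxl, a sialomucin, had low levels, at 1.48, 1.55 and 1.40 CPM in MYC on, then 0.155, 0.407 and 0.592 CPM in MYC intermediate (1.94 ± 0.43, adjusted p = 0.00173). Mgat4b, which branches N-glycans, fell from 4.13, 5.13 and 4.29 CPM to 1.40, 2.00 and 1.36 CPM (1.5 ± 0.21). Galnt6, which starts mucin-type O-glycans, rose from 2.95, 3.26 and 2.56 CPM to 12.7, 14.1 and 15.7 CPM (-2.30 ± 0.13, adjusted p = 3.41e-09).

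Sialyltransferases add sialic acid to the ends of glycans, the form read by Siglec receptors of other immune cells. Of 20 in the mouse list, 12 passed the filter, 3 fell, 3 rose and 6 were not called (50% called beside 34.6% of all genes). St6galnac4, which adds sialic acid to sialylated core 1 O-glycans, was at 142, 138 and 161 CPM in MYC on and at 56.4, 67.7 and 62.4 CPM in MYC intermediate (1.23 ± 0.081, adjusted p = 1.28e-08). The intermediate cells thus kept 42.3% of its MYC on level beside 32.4% for hMYC, and in MYC off its mean was 20.4 CPM. St3gal4 fell from 17.8, 19.1 and 18.6 CPM to 11.9, 12.7 and 12 CPM, and St6galnac6 from 25.8, 24.9 and 23.4 CPM to 16.6, 19.0 and 17.7 CPM. St3gal4 overlaps a noncoding gene on the opposite strand that held 198.0% of its counts. St6gal1 (-0.82 ± 0.079), St8sia4 (-0.82 ± 0.1) and St3gal2 (-0.72 ± 0.088) rose. St3gal1, which makes the structure that St6galnac4 extends, had between 3 and 14 counts per library and a sign that turned without MYC on replicate 1. St6gal2, St6galnac5, St8sia2 and St8sia3 had 0 counts in the 6 libraries, which allows up to 0.0192 CPM.

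Genes that start or extend mucin-type O-glycans and the proteins that carry them gave 2 falls and 7 rises among 16 tested. Among carriers, Podxl fell, as given above, and Spn, Ptprc and Selplg rose. Spn (CD43), a mucin-type protein of T cells, went from 42.6, 42.3 and 43.3 CPM to 72.3, 69.7 and 71.1 CPM (-0.74 ± 0.06, adjusted p = 1.11e-07). Ptprc (CD45) changed by -1.06 ± 0.052 and Selplg by -0.33 (390 to 485 CPM). C1galt1, which makes core 1, rose from 86.0, 83.6 and 86.7 CPM to 138, 107 and 106 CPM (-0.47 ± 0.091).

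**Figure D4:**
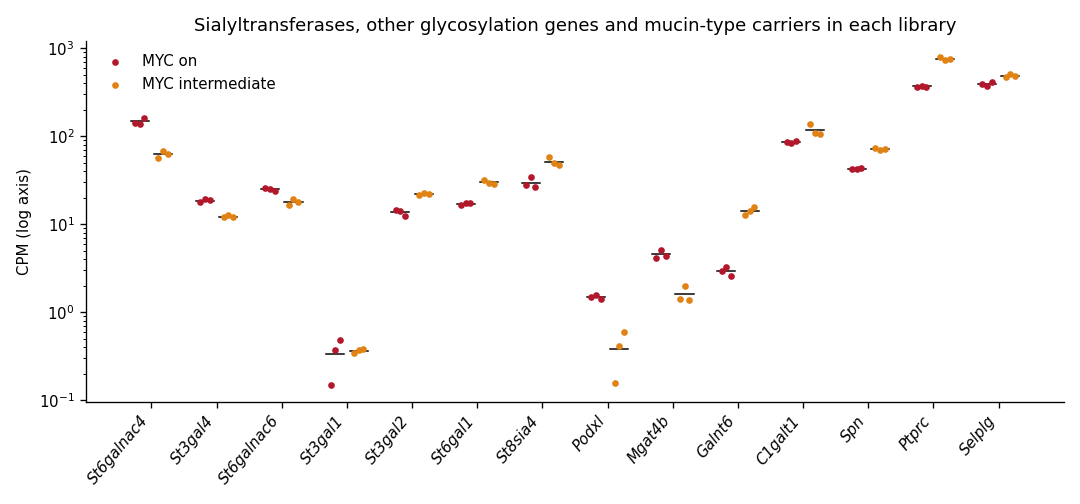
Level in each library, as CPM on a log axis, of 7 sialyltransferase genes, 4 other glycosylation genes (Mgat4b, Galnt6, C1galt1 and the sialomucin Podxl) and the carriers Spn, Ptprc and Selplg, with MYC on in red, MYC intermediate in orange and a line at each mean. St6galnac4 fell from a mean of 147 to 62.2 CPM, while St3gal2, St6gal1, St8sia4, Galnt6 and the 3 carriers were higher in every MYC intermediate library.

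The step from MYC on to MYC intermediate was then set against the step from MYC intermediate to MYC off within one contrast, since both steps share the MYC intermediate libraries. A gene was called where the intermediate level lay off the midpoint of the other groups on the log2 scale. This was so for 266 genes (1.89% of those tested), 240 (1.70%) with the intermediate above the midpoint and 26 (0.184%) below it. Of the 240 above, 173 were genes lower in MYC on than in MYC off, whose rise was larger in the first step, and 67 were genes higher in MYC on, whose fall was larger in the second. The sizes of the 2 steps are compared on the log2 scale here and below, and their order can differ in CPM. Of the 26 below, 19 were higher and 7 lower in MYC on. The count of 26 was 6 without MYC intermediate replicate 1, 9 without MYC intermediate replicate 2, 11 without MYC off replicate 2, 12 without MYC on replicate 3, 13 without MYC on replicate 1 and 64 without MYC off replicate 1, and DESeq2 gave 109. The total of 266 also depended on single libraries: it was 122 without MYC intermediate replicate 2, 147 without MYC off replicate 2, 165 without MYC on replicate 2, 166 without MYC on replicate 1 and 177 without MYC off replicate 3.

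hMYC itself lay above the midpoint of the log2 scale, with 1.61 ± 0.071 in the first step and 6.79 ± 0.099 in the second (contrast -5.18, adjusted p = 2.62e-12). On the log2 scale, some growth genes fell further in the second step than in the first. Srm changed by 1.35 and then 4.46 (contrast -3.11, adjusted p = 2.72e-10), Bcat1 by 1.42 and 3.87, and Polr1b by 1.27 and 2.80. In mean CPM the first fall was the larger for Srm (487, 190, then 8.86), Bcat1 (164, 60.7, then 4.29) and Polr1b (198, 81.4, then 12.1). Of the nucleolar genes 22 of 130 (16.9%, beside 1.89% of all genes) were called, 21 of them with a positive value in both steps and the larger in the second, while Bysl changed by -1.05 and then -0.24. In this edgeR fit a step difference was called for 0 of 84 cytosolic ribosomal protein genes and 0 of 40 aminoacyl-tRNA synthetase genes. It was called for 0 of 76 mitochondrial ribosome genes and 1 of 51 translation factor genes. The lack of calls does not show equal steps. The median log2 fold change was 0.59 and then 0.84 for cytosolic ribosomal protein genes, beside 0.62 and then 0.78 for nucleolar genes. It was 0.26 and 0.40 for mitochondrial ribosome genes, 0.42 and 0.40 for synthetase genes and 0.40 and 0.50 for translation factor genes. Among the 11 of 73 G1/S genes that were called (15.1%), Cdk6 fell further in the second step (1.03, then 1.85), whereas Ccnd3 (-1.26, then -0.36) and E2f2 (-1.03, then -0.37) rose more in the first.

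A minority of the T cell genes had a step difference that was called, in each case with the larger rise on the log2 scale in the first step. Cd5 changed by -3.22 and then -1.07 (contrast -2.15, adjusted p = 1.97e-07), Cd6 by -3.05 and -0.95, and Tespa1 by -3.03 and -0.83. Hsd11b1 changed by -3.53 and -1.07 (contrast -2.46, adjusted p = 1.48e-07). In mean CPM the second rise was the larger for Cd5 (5.34, 49.1, then 106.5), Cd6 (37.1, 307, then 611.5) and Hsd11b1 (3.50, 40.0, then 86.4). For Tespa1 (10.5, 85.7, then 157) the first was the larger in CPM too. Called in the same way were 7 of 24 genes of the receptor complex (29.2%), 8 of 40 of proximal signalling (20.0%), 8 of 46 of maturation (17.4%) and 5 of 26 lineage factors (19.2%). Of 7 cytotoxic granule genes Gzma and Prf1 were called, and the median of that group was -0.46 in the first step and -0.56 in the second.

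Among called genes of at least 10 CPM, a few changed by more than 2-fold in the first step and by less than 0.25 on the log2 scale in the second. Gata3 rose by 2-fold and more to 213 CPM and was at 240 CPM in MYC off (-0.13 ± 0.058, adjusted p = 0.096). Lmo4, a LIM-only transcription cofactor, went from a mean of 31.6 to 70.0 and 81.8 CPM. Bysl and E2f8 met the same limits, although the second step was itself called for both (-0.24 ± 0.056, adjusted p = 0.00338, and -0.23 ± 0.05, adjusted p = 0.00178). Zfyve28, a regulator of endosomal receptor traffic, fell from 76.8, 81.8 and 76.5 CPM to 26.5, 33.4 and 32.7 CPM and was at 23.4, 34.0 and 33.1 CPM in MYC off. Matk, a kinase that inhibits Src family members, went from a mean of 33.2 to 15.7 and 16.7 CPM, Stc2, a secreted glycoprotein, from 55.4 to 23.3 and 21.3 CPM, and Bhlhe40, a repressor of the circadian and stress responses, from 18.7 to 8.77 and 10.6 CPM. Of these contrasts, that of Matk was lost without MYC intermediate replicate 1 (0.91) and that of Lmo4 without MYC intermediate replicate 1 (-0.75) or replicate 2 (-1.01). Bhlhe40 lost its call in 6 of the 9 fits that each left out one library (1.18 to 1.3), and Stc2 also in 6 (0.94 to 1.18).

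Of the 266 genes with a called step difference, 232 also had at least 10 CPM, a named symbol and no pseudogene class. Among these 232, 2 had their lowest level in MYC intermediate, in every library and by over 0.5 on the log2 scale in both steps, and 0 had their highest there. Ndrg1, a gene induced by hypoxia and differentiation, was at 46.8, 25.9 and 34.5 CPM in MYC on, then 10.2, 14.5 and 13.4 in MYC intermediate and 19.3, 23.9 and 14.9 CPM in MYC off (contrast 2.06, adjusted p = 0.0038), and its second step was not called on its own (-0.57 ± 0.2, adjusted p = 0.0387). Firre, an X-linked noncoding RNA, was at 11.1, 13.9 and 10.8, then 6.27, 7.11 and 7.14, then 8.74, 13.2 and 12.6 CPM (contrast 1.49, adjusted p = 0.00361). Both calls were lost without MYC intermediate replicate 1 (1.79 and 1.38) and without replicate 2 (2.28 and 1.56), and that of Firre also without MYC off replicate 2 (1.38).

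**Figure D5:**
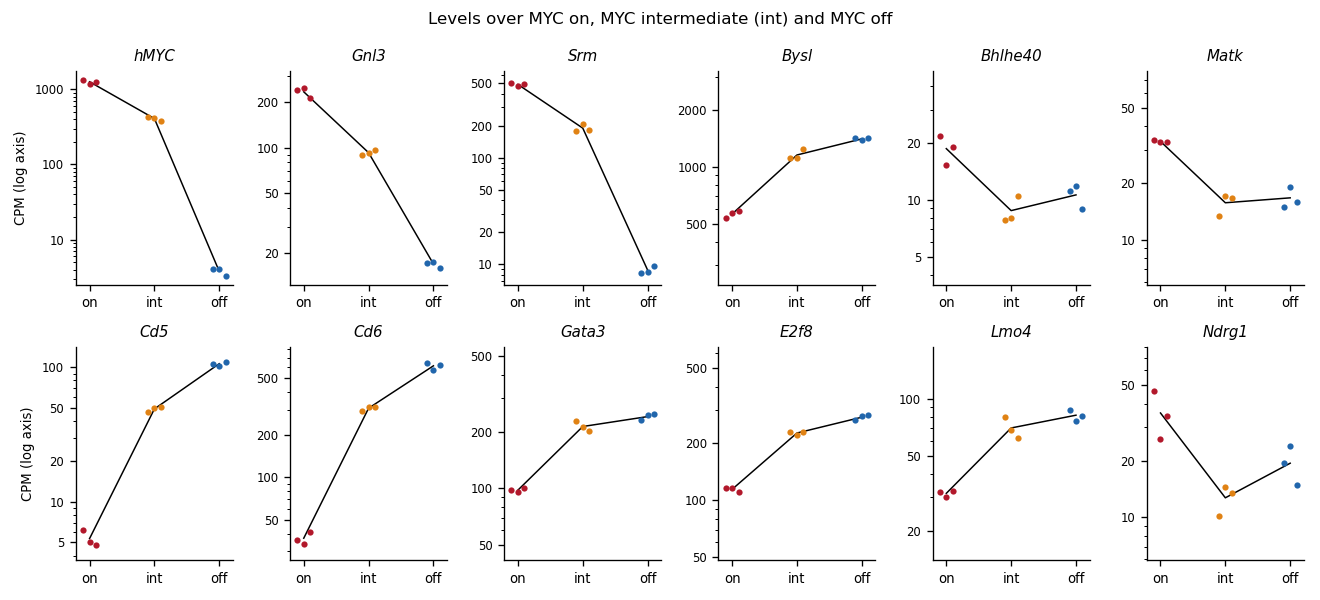
Each panel gives one gene over MYC on (red), MYC intermediate (int, orange) and MYC off (blue), with a point per library, a line through the means of 3 and CPM on a log axis whose range differs between panels. On this log axis, hMYC, Gnl3 and Srm drop more steeply from int to off, Cd5 and Cd6 rise more steeply from on to int, and Gata3, E2f8, Lmo4, Bhlhe40 and Matk change mostly in the first step.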

How the data were processed

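RNA of 9 libraries (3 per group) was primed with oligo(dT) by SMART-Seq v4 and made into Nextera XT libraries, which do not mark strand. Per the labels and processing notes, the authors trimmed reads with cutadapt 1.16, aligned them with STAR 2.5.4b to mm10 and counted them with featureCounts; the deposited values are raw counts per gene, hMYC included. The annotation release and the strand setting are not given in the sources used here. Gene names came from GENCODE, with the version dropped.

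Genes were filtered by group with filterByExpr and scaled by TMM, and all 9 libraries were fitted with the edgeR 4.0.16 quasi-likelihood test (R 4.3.3, two-sided); calls were made at a Benjamini-Hochberg adjusted p under 0.01. Log2 fold changes are MYC on over MYC intermediate, or MYC intermediate over MYC off for the second step. Levels are CPM, scaled to each library's total count and not corrected for gene length, so they were not compared between genes. Falls and rises are relative to the other RNA of a library, and total RNA per cell cannot be read from these counts.

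The labels do not say whether libraries of a group came from separate cultures, so p-values measure the spread between these libraries only, which may be technical. Genes named in the text were, in each direction, the 15 called genes with the largest change among those of at least 10 CPM whose groups did not overlap, up to 4 called members of at least 5 CPM per gene list, hMYC, Myc, Spn, the 20 sialyltransferases, glycosylation genes past 1.5 on the log2 scale and genes of the step patterns; other members of a list are given only beside its counts. The comparison, the lists and this rule were chosen with earlier results of these data known. Gene lists were described by counts and medians, with no set test. The counts of each list are to be read beside the 17.2% of all tested genes that fell and the 17.4% that rose. Alternatives covered DESeq2 1.42.0, other scalings and filters, thinned counts, the replicate number and each library left out. A few genes that these rules name are not reported here.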

Additional observations from a re-analysis of the deposited data

How the results depend on the processing

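Counts of called genes between MYC on and MYC intermediate stayed within 1.5 times under each of 19 alternatives, from 4032 (without MYC on replicate 1) to 5260 (no count filter). Between 48.1% and 52.8% of the calls were higher in MYC on. Every scaling used sets a gene relative to the other RNA of its library. The near-even split therefore cannot show whether total RNA per cell changed. The count for the step contrast, 266, was 476 with DESeq2, 850 with no count filter and 430 with the replicate number as a block; its part below the midpoint, 26, was 109, 155 and 73. Leaving out 1 library at a time gave 122 to 386 and 6 to 64. The replicate numbers gave no clear sign of pairing: deviations of same-numbered MYC on and MYC intermediate libraries correlated at 0.132, -0.18 and -0.165 over 9946 genes, and only number 1 correlated best with its own number. The labels do not say whether the libraries were paired. With the replicate number as a block 5192 genes were called, beside 4884 without it, and 4629 with the block and only the 6 libraries, an alternative chosen after seeing the data. Medians turned sign for oxidative phosphorylation (-0.04 to 0.2, lowest without MYC intermediate replicate 3), mitochondrial transcripts (0.04 without MYC intermediate replicate 1), p53 targets (0.07 with a CPM of 1 in 3 libraries) and sialyltransferases (0.27 with that filter, 0.01 without MYC on replicate 1), and St3gal1 ranged from -0.51 to 0.23, the latter without MYC on replicate 1. Calls of mt-Co1, Srgn and Lamp1 were lost under at least 1 alternative. The cause was not tested. Genes near 1 CPM rest on few counts.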

Other observations

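Lysosome and autophagy genes were called in 39.3% of 61 tested members, near the 34.6% of all genes, with 9 higher and 15 lower in MYC on and a median of -0.01. Lipa, the lysosomal acid lipase, was at 101, 97.8 and 90 CPM in MYC on and at 195, 185 and 207 CPM in MYC intermediate (log2 fold change -1.03 ± 0.063), and the protease gene Ctsl changed by -0.95 ± 0.06. Gusb (0.91 ± 0.062) and the membrane protein gene Lamp2 (0.83 ± 0.063) fell. Of 25 chaperones and disulfide isomerases of the endoplasmic reticulum, 2 fell and 6 rose, a called share of 32% that is also near that of all genes. Pdia5, an isomerase, fell from 25.6, 20.5 and 23 CPM to 7.42, 8.22 and 8.60 CPM (1.5 ± 0.16), while Edem1, which sends misfolded glycoproteins to degradation, rose from 1723, 1725 and 1675 CPM to 3067, 2995 and 3125 CPM (-0.85 ± 0.048). Cytosolic chaperones fell in 18 of 36 members and rose in 3, a called share of 58.3%. Fkbp4 was at 0.83 ± 0.054, Cct6a at 0.80 ± 0.051 and Hsp90aa1 at 0.74 ± 0.067.

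Redox genes fell in 15 of 30 members and rose in 3 (60% called beside 34.6% of all genes). Gsto1, a glutathione transferase gene, went from 76.1, 74.0 and 69.3 CPM to 28.8, 28.1 and 30.2 CPM (1.32 ± 0.085), and Txnip, which binds thioredoxin and is induced by glucose, rose from 13.9, 13.9 and 15 CPM to 27.9, 24.8 and 26.3 CPM (-0.89 ± 0.081). Tfrc, the transferrin receptor, fell by 0.78 ± 0.065, and Hmox1, which degrades haem, rose (-0.76 ± 0.12). Among immediate-early and heat shock genes 9 of 22 rose and 2 fell (50% called), with Dusp6, a phosphatase that acts on ERK, at 1.77, 2.08 and 2.01 CPM and then 5.87, 5.52 and 6.41 CPM (-1.61 ± 0.15). Dusp1 rose (-0.89 ± 0.08), but it overlaps Ergic1 on the opposite strand, which held 780.8% of its counts. Chromatin modifier genes split evenly, with 11 falls and 11 rises among 55. The called share of 40% was near the 34.6% of all genes. The 4 with the largest changes all fell, the methyltransferase genes Smyd5 (1.12 ± 0.066), Smyd2 (1.06 ± 0.057) and Carm1 (1.04 ± 0.06) and the DNA methyltransferase gene Dnmt3b (1.10 ± 0.18).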
